A study of Mus musculus with 12 samples.

Results

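The 10 genes described here are the transcription factor gene Trp53 and 9 genes known as its targets in growth arrest and feedback: Mdm2, Ccng1, Trp53inp1, Zmat3, Cdkn1a, Btg2, Plk2, Phlda3 and Sesn1. They were chosen by gene symbol, and each stood once in both of the authors' deposited tables, among 18712 genes at 10 days and 18765 genes at 5 days. Poly(A) RNA came from E14 mouse embryonic stem cells in 12 libraries, 3 in each of 4 groups. The groups were cells 10 days after withdrawal of a 5-day IAA (auxin) treatment, the DMSO control of that time, cells given IAA for 5 days, and their DMSO control. All 4 groups carry the genotype RACK1-AID/RPS26-Tir1 Ribo-Tweezer, in which IAA brings the ribosome-bound receptor to a degron on RACK1, a protein of the small ribosomal subunit. No group lacks the tags, so an effect of IAA itself and one of RACK1 loss cannot be told apart. The labels do not say whether the cells are 1 clone or whether replicates are separate cultures, and if they are not, the p-values rest on technical spread between libraries alone.

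The protein p53 is kept scarce because MDM2, a ubiquitin ligase, marks it for degradation, and p53 in turn switches on Mdm2, which closes a negative feedback loop. When DNA is damaged, or when free ribosomal proteins bind MDM2, p53 escapes and raises the RNA of its targets, while the level of its own mRNA need not change. Mouse embryonic stem cells carry much p53 and are known for a weak G1 arrest, with little of the arrest protein p21 made from Cdkn1a.

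Read as IAA over DMSO, 7 of the 10 genes were higher after 5 days in IAA, none was lower, and Trp53 RNA itself was not called. The 7 were Phlda3, Plk2, Trp53inp1, Btg2, Ccng1, Mdm2 and Zmat3, with log2 folds of 0.42 to 1.33 in the authors' deposited table. Cdkn1a and Sesn1 were not called. At 10 days after withdrawal none of the 10 genes was called, and neither was any of the 18712 genes. The folds of 6 of the 7 risers differed between the times by a test of that difference, which 10.4% of all genes passed. The risers were called on the same 5-day fold that enters this test, which favours a lower fold at 10 days. A gene was called at a limma Benjamini-Hochberg (BH) adjusted p under 0.05 in the authors' deposited table, the rule that 25.5% of all genes met at 5 days, 13.5% as higher and 12.1% as lower. Of the 18765 genes behind these shares, 9429 had a mean level of at least 3 log2 CPM, as all 10 genes did. The shares among those alone were not computed. RNA was pooled over cells, so more RNA per cell and more cells of a state that makes it cannot be told apart.

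The promoters are shown first, because p53 acts by binding DNA and because the 2 closest matches to its site lie at 1 gene that rose, Ccng1, and 1 that was not called, Cdkn1a. The p53 response element is a 20-base site of 2 adjoining decamers, each with purines, then C, 2 bases of A or T, then G, then pyrimidines. RefSeq windows of 300 bases (GRCm38.p6, 250 before a start and 50 after it) were available for 8 of the 10 genes, in 10 windows. Those of Trp53inp1 and Zmat3 were not used here. The best match in each window was the 20 bases with the fewest mismatches that kept C and G in both decamers, and the element reads the same on both strands. With at most 1 mismatch, the element was found in Ccng1 and in the upstream window of Cdkn1a. Of all 32851 windows, 22 held such a match, a share of 0.067%. The capitals mark the match in the bases before each start:
Ccng1 (chr11:40755287-40755536, minus strand): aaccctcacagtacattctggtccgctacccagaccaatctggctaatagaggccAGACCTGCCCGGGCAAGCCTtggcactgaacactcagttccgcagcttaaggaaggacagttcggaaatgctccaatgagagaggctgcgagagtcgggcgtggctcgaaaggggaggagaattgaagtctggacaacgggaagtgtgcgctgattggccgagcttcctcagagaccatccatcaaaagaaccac
Cdkn1a, upstream start (chr17:29090729-29090978, plus strand): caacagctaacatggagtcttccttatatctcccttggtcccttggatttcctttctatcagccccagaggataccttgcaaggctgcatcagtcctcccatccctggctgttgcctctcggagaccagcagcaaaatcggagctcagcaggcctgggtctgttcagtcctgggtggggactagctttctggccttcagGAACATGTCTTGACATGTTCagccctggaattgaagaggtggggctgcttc

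The Ccng1 match lay 176 to 195 bases before the RefSeq start. That of Cdkn1a lay 32 to 51 bases before the upstream start, and its near end was 2822 bases before the start of the longer transcript ENSMUST00000023829.7. Trp53 and the downstream start of Sesn1 followed with 3 mismatches each, a match that 1.38% of all windows hold at least as well:
Trp53 (chr11:69580284-69580303, plus strand): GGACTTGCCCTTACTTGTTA
Sesn1, downstream start (chr10:41887266-41887285, plus strand): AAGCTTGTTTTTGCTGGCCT

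The best matches of Phlda3 and Plk2, the genes with the highest folds, had 5 mismatches, which 12.4% of all windows reach. With no spacer, those of Btg2 (7 mismatches), Mdm2 (9) and the other windows of Cdkn1a and Sesn1 (7 and 8) were poorer, and 39.5% of all windows hold one with at most 7. With a spacer of 0 to 3 bases allowed between the decamers, an alternative added after the data were seen, the best match of Mdm2 had 4 mismatches, fewer than those of Phlda3 and Plk2, still at 5. Of all windows, 17.8% hold a match at least that close under this setting. The downstream window of Sesn1, which was not called, went from 3 mismatches to 2, which 1.35% of all windows reach. The window of Btg2 and the other windows of Cdkn1a and Sesn1 went to 6, 6 and 7. A single decamer with no mismatch was present in 5 of the 10 windows (1 each of Trp53, Mdm2, Cdkn1a, Ccng1 and Sesn1) and in 8.36% of all windows. A match is a description of letters, and no binding was measured. The well-known p53 sites of Mdm2 lie in its first intron, outside these windows.

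**Figure D1:**
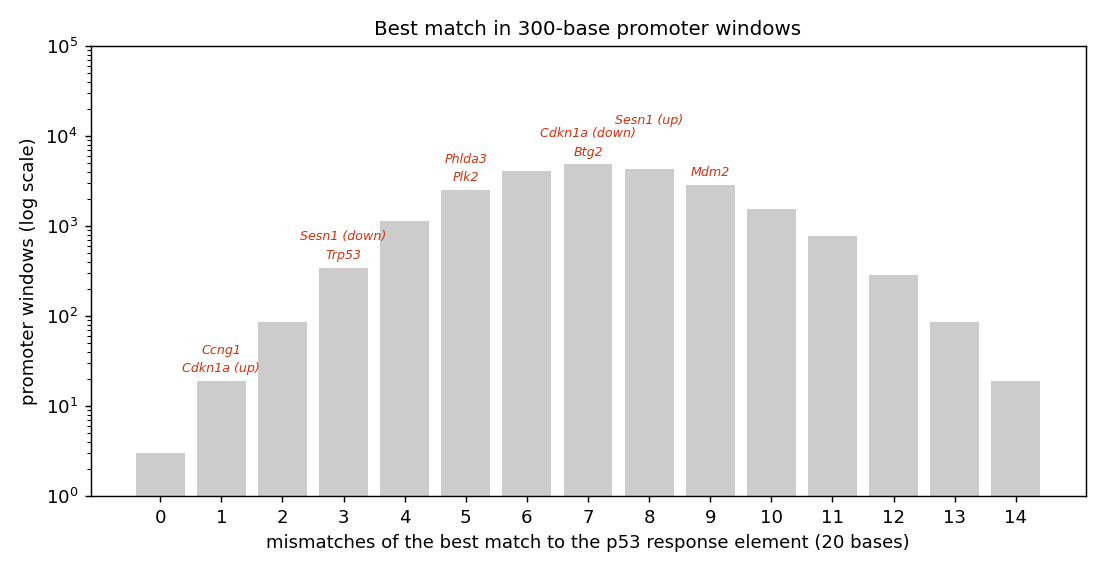
Number of 300-base promoter windows (vertical axis, log scale) by the mismatches of their best match to the 20-base p53 response element (horizontal axis), over all windows with a match that keeps the C and G of both decamers. Gene names stand above the bar they belong to, with up and down for the upstream and downstream start of a gene with 2 windows, and Ccng1 and the upstream window of Cdkn1a stand at 1 mismatch.

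The tables hold no values of single libraries, so levels are group means derived from the mean log2 CPM and the fold, and the standard error (SE) is the one implied by the fold and its t. Libraries held a geometric mean of 21.2 M reads in the 10-day table and 23.3 M in the 5-day table, computed from the level of the 478 and 552 rarest genes and a prior count of 0.5. The headers do not name the sign of a fold. A positive value was read as higher with IAA, from a regression over the 4772 genes called at 5 days of how far their mean level stood above that of the 10-day table. On the 5-day fold the slope was 0.53 ± 0.011 (SE, across genes, which are not independent), where this reading gives 0.5 and its reverse -0.5. The slope reads the sign rightly only where differences between the controls of the 2 times do not follow the 5-day fold. Those controls differed for many genes, as given below, and whether that moved the slope was not tested. With the other reading every direction of IAA against DMSO given here turns round. Differences between the controls of the 2 times then change in size, and those given below keep their direction. Of 8 stem cell markers all were present, at 8.33 to 10.6 log2 CPM in IAA and 8.76 to 10.8 in DMSO at 5 days. Of these 1 was called as higher and 5 as lower, and those called were Nanog, Zfp42, Dppa5a, Lin28a, Sox2 and Pou5f1. Over all genes 13.5% were called as higher and 12.1% as lower, shares that also stand beside the marker counts that follow. Fibroblast markers summed to 66.7 CPM in IAA and 69.9 CPM in DMSO, and 2 of 11 measured (Col6a1 and Col6a2) were higher. Markers of differentiated lineages summed to 25.3 CPM in IAA and 26.7 CPM in DMSO, with 2 of 10 higher (Foxa2 and Gata4). Of these markers Col6a1, Dcn, Pdgfra, Postn, Col3a1, Foxa2, Sox17, T, Cdx2, Mesp1 and Gata6 lay below 1 CPM in both groups at 5 days. The part of cell state in the results below was not tested.

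Trp53 (ENSMUST00000108658.9, plus strand of chromosome 11, 69580359 to 69591872, 11 exons) had the highest level of the 10 genes, also per kilobase, and was not called at 5 days. Coordinates here and below are of GENCODE M21 (GRCm38). Its level was 8.82 log2 CPM in IAA and 8.86 log2 CPM in DMSO. The authors' deposited table gave a log2 fold of -0.04 ± 0.06 (SE, limma BH adjusted p = 0.669). The upper limit of its 95% interval, 0.08, lies below the lower limit of every called target, the lowest of which is 0.31 in Zmat3. Calling by the same folds favours such limits. The targets not called do not show this gap, with lower limits of 0.06 in Cdkn1a and -0.29 in Sesn1. With length and GC trends removed the fold of Trp53 stood at 0.02, so its sign is not fixed by these data. Per kilobase of the listed transcript, Trp53 stood at 7.99 log2 CPM in IAA and 8.03 in DMSO, above the next highest gene in each group (Phlda3 at 5.42 in IAA, Mdm2 at 4.55 in DMSO).

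Of the feedback genes, Mdm2 (ENSMUST00000020408.15, chromosome 10, 117688875 to 117710758, minus strand, 12 exons) rose by 1.50-fold. Its level was 6.77 log2 CPM in IAA and 6.18 log2 CPM in DMSO. The authors' deposited table gave a log2 fold of 0.59 ± 0.06 (SE, 95% interval 0.46 to 0.72, limma BH adjusted p = 1.73e-05). Ccng1 encodes cyclin G1, which brings protein phosphatase 2A to MDM2 and so favours p53 loss (ENSMUST00000020576.7, chromosome 11, 40748552 to 40755311, minus strand, 6 exons). Its level was 6.89 log2 CPM in IAA and 6.23 log2 CPM in DMSO, a log2 fold of 0.66 ± 0.07 in the authors' deposited table (limma BH adjusted p = 1.98e-05). These 2 genes, both known to restrain p53, thus rose by amounts whose intervals overlap, that of Ccng1 being 0.51 to 0.80.

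Trp53inp1 encodes a stress protein that favours p53 phosphorylation and takes part in autophagy (ENSMUST00000029865.3, chromosome 4, 11156431 to 11174379, plus strand, 4 exons). It stood at 6.59 log2 CPM in IAA and 5.73 log2 CPM in DMSO, with the third highest fold of the 10 genes. The authors' deposited table gave 0.87 ± 0.07 (limma BH adjusted p = 2.59e-06). Zmat3, also called Wig1, encodes a zinc finger protein that binds RNA (ENSMUST00000029199.10, chromosome 3, 32334792 to 32365678, minus strand, 6 exons). It was at 7.38 log2 CPM in IAA and 6.95 log2 CPM in DMSO and had the lowest fold among the called genes, 0.42 ± 0.05 in the authors' deposited table (limma BH adjusted p = 7.30e-05). Its fold lay under a limit of 0.5 on the log2 scale, so a call that also asks for that size leaves it out.

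Of the arrest genes, Btg2 and Plk2 were called and Cdkn1a was not, though its fold was above 0. Cdkn1a encodes p21, the inhibitor of cyclin-dependent kinases, and was at 3.73 log2 CPM in IAA and 3.39 log2 CPM in DMSO. The log2 fold was 0.34 ± 0.13 (SE, 95% interval 0.06 to 0.62) in the authors' deposited table, with an unadjusted p of 0.0210 and a limma BH adjusted p of 0.0726, so it was not called. With length and GC trends removed over all genes it was called, at 0.49 (adjusted p = 0.0145), and likewise with the expression trend removed too, at 0.42 (adjusted p = 0.0329). The listed transcript is short, with 922 bases (ENSMUST00000119901.8, chromosome 17, 29090979 to 29099701, plus strand, 3 exons), which starts just past the site shown above. GENCODE M21 also has ENSMUST00000023829.7 with 1913 bases from 29093769, and whether reads outside the listed transcript were counted is not given in the sources used here.

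Btg2 encodes an antiproliferative protein that recruits a deadenylase to mRNA (ENSMUST00000020692.6, chromosome 1, 134075170 to 134079120, minus strand, 2 exons). Its level was 4.44 log2 CPM in IAA and 3.70 log2 CPM in DMSO, and the authors' deposited table gave a fold of 0.74 ± 0.09 on the log2 scale (limma BH adjusted p = 8.25e-05). Plk2 encodes a polo-like kinase of centriole duplication (ENSMUST00000022212.8, chromosome 13, 110395046 to 110400844, plus strand, 14 exons). It was at 4.98 log2 CPM in IAA and 3.68 log2 CPM in DMSO, 2.46-fold higher. Its log2 fold of 1.30 ± 0.11 in the authors' deposited table (limma BH adjusted p = 3.72e-06) had an interval of 1.07 to 1.53, all of it above the interval of Btg2, 0.54 to 0.94.

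The pair of genes that act on growth signalling stood at the opposite ends of the list. Phlda3 encodes a small protein of 1 pleckstrin homology domain that competes with AKT for membrane lipids and so restrains AKT (ENSMUST00000038945.5, chromosome 1, 135766119 to 135769136, plus strand, 2 exons). With 5.94 log2 CPM in IAA and 4.61 log2 CPM in DMSO it was 2.51-fold higher and ranked 15 by p among the 18765 genes. The authors' deposited table gave 1.33 ± 0.08 (95% interval 1.14 to 1.51, limma BH adjusted p = 5.97e-07). Sesn1 encodes sestrin 1, a stress protein that restrains mTORC1 (ENSMUST00000099931.10, chromosome 10, 41809935 to 41908424, plus strand, 10 exons), and was at 3.33 log2 CPM in IAA and 3.39 log2 CPM in DMSO. The Sesn1 fold was -0.06 ± 0.11 in the authors' deposited table (95% interval -0.29 to 0.17, limma BH adjusted p = 0.753). The listed Sesn1 transcript begins near the upstream RefSeq start, while the closer match to the p53 element lies before the downstream start.

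**Figure D2:**
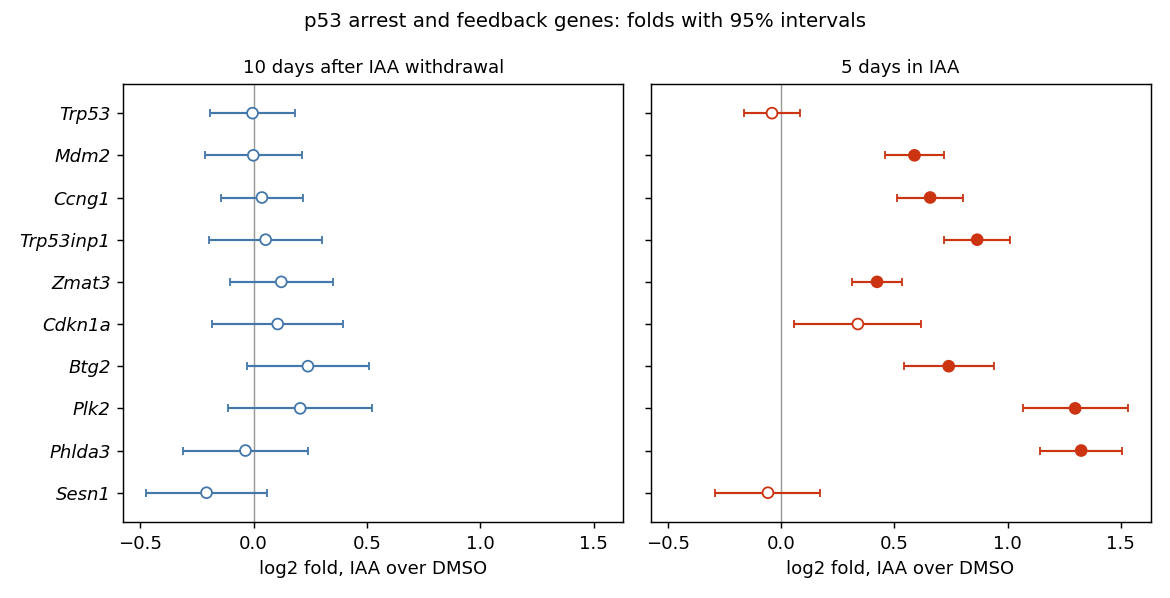
Log2 fold of IAA over DMSO (horizontal axis) for each of the 10 genes, 10 days after IAA withdrawal (left, blue) and after 5 days in IAA (right, red). Points are the folds of the authors' deposited table, bars their 95% intervals and filled points the genes at a BH adjusted p under 0.05, which are 0 at 10 days and 7 at 5 days.

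Per kilobase of the listed transcript, the order of levels after 5 days in IAA was Trp53, Phlda3 (5.42 log2 CPM), Mdm2 (5.14), Ccng1 (5.07), Zmat3 (4.42), Trp53inp1 (4.16), Cdkn1a (3.85), Plk2 (3.50), Btg2 (2.99) and Sesn1 (1.40). In DMSO the order was Trp53, Mdm2 (4.55 log2 CPM), Ccng1 (4.42), Phlda3 (4.09), Zmat3 (3.99), Cdkn1a (3.51), Trp53inp1 (3.29), Btg2 (2.25), Plk2 (2.20) and Sesn1 (1.46). Phlda3 thus stood above Mdm2 and Ccng1 in IAA and below both in DMSO. Mdm2 and Ccng1 in IAA, and Btg2 and Plk2 in DMSO, differed by less than the sum of the SEs of their 2 means. The rank of Cdkn1a rests on the short listed length.

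The transcripts of the 10 genes shared no common build. Their 5' leaders ran from 67 bases (Btg2) to 1087 bases (Sesn1), against a median of 168 over all genes. Coding sequences ran from 378 bases (Phlda3) to 2049 bases (Plk2), and 3' ends from 308 bases (Cdkn1a) to 6692 bases (Zmat3, longer than in 98.7% of genes). GC content was 0.388 in Trp53inp1, higher than in 3.22% of genes, and 0.626 in Phlda3, higher than in 98.2%, and both rose. Upstream AUGs numbered 0 in Trp53, Btg2 and Plk2, 3 in Cdkn1a and 6 in Sesn1. The annotation shows no exon of another gene over the listed exons of any of the 10.

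At 10 days after IAA withdrawal the folds of all 10 genes were small. They ran from -0.21 in Sesn1 to 0.24 in Btg2 in the authors' deposited table, with a median of 0.04 against 0.00 over all genes. By limma's BH adjusted p none of the 10 was called, and neither was any of the 18712 genes (0%). At an unadjusted p under 0.05 the count was 0 of the 10 genes, against 805 genes or 4.3% of all. Phlda3 stood at 4.23 log2 CPM in IAA and 4.27 log2 CPM in DMSO, a fold of -0.04 ± 0.13 on the log2 scale in the authors' deposited table (limma BH adjusted p = 0.960). Mdm2 was at 6.54 log2 CPM in both groups, and the authors' deposited table gave -0.00 ± 0.10 (95% interval -0.22 to 0.21). The smallest p of the 10 was that of Btg2, at 4.39 log2 CPM in IAA and 4.15 log2 CPM in DMSO, with 0.24 ± 0.13 in the authors' deposited table (unadjusted p = 0.0766). Plk2 had 0.21 ± 0.15 in the authors' deposited table, with an interval of -0.11 to 0.52. The intervals of Btg2 and Plk2 reach past 0.5, so rises of up to that size are within the error at 10 days.

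Whether the folds changed between the times was tested on the difference itself, the 10-day fold minus the 5-day fold. This was a two-sided z test adjusted over the 18120 genes in both tables. It uses the normal law for SEs of few degrees of freedom, so the p-values below are too small, most of all the smallest ones. A fold that differs need not have returned to 0. The called genes were called on the same 5-day fold that enters the difference, which favours a lower fold at 10 days. Of all genes 10.4% differed, 5.57% as lower at 10 days. Of the 10 genes 6 differed, all lower at 10 days. The difference was -1.36 ± 0.15 (SE) for Phlda3, with an adjusted p of 8.33e-16. It was -1.09 ± 0.18 for Plk2 (adjusted p = 3.96e-07) and -0.81 ± 0.13 for Trp53inp1 (adjusted p = 2.34e-07). Ccng1, Mdm2 and Btg2 differed by -0.62 ± 0.11, -0.59 ± 0.12 and -0.50 ± 0.16 (adjusted p = 1.14e-06, 2.90e-05 and 0.0191). For Zmat3 the difference was -0.30 ± 0.12, with an interval of -0.53 to -0.07 and an adjusted p of 0.0815, so its fall between the times did not pass. Cdkn1a had -0.23 ± 0.19 (interval -0.60 to 0.14), Sesn1 -0.15 ± 0.17 and Trp53 0.03 ± 0.11, none of which passed (adjusted p = 0.501, 0.648 and 0.894).

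The controls of the 2 times were not at the same level. The tables were normalized separately, so no test was made of levels across them. Trp53inp1 was at 7.47 log2 CPM in the 10-day DMSO control and 5.73 in the 5-day one, a difference of 1.75. Of the 9490 genes with a mean level of at least 3 log2 CPM over both tables, 99.7% lay below it. These levels rest on the sign of the folds, and with the other reading the difference would be 0.93, above 92.2% of genes. Ccng1 was at 7.60 log2 CPM in the 10-day control and 6.23 in the 5-day one, above 99.0% of these genes, or above 87.7% with the other reading. Both genes were therefore higher in the 10-day control than in cells after 5 days in IAA, at 6.59 and 6.89 log2 CPM. Trp53 went the other way, with 7.96 log2 CPM in the 10-day control and 8.86 in the 5-day one, and 4.92% of genes lay lower, or 8.54% with the other reading. Cdkn1a and Sesn1 were 0.73 and 0.74 higher in the 10-day control, and Zmat3 stood at 6.93 and 6.95 in the 10-day and 5-day controls. For Phlda3, Plk2, Mdm2, Zmat3 and Btg2 the 5-day IAA cells had the highest level of the 4 groups, or the 5-day DMSO cells with the other reading. For Btg2 the margin over the 10-day IAA cells, 4.44 against 4.39 log2 CPM, was below the SE of either mean.

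**Figure D3:**
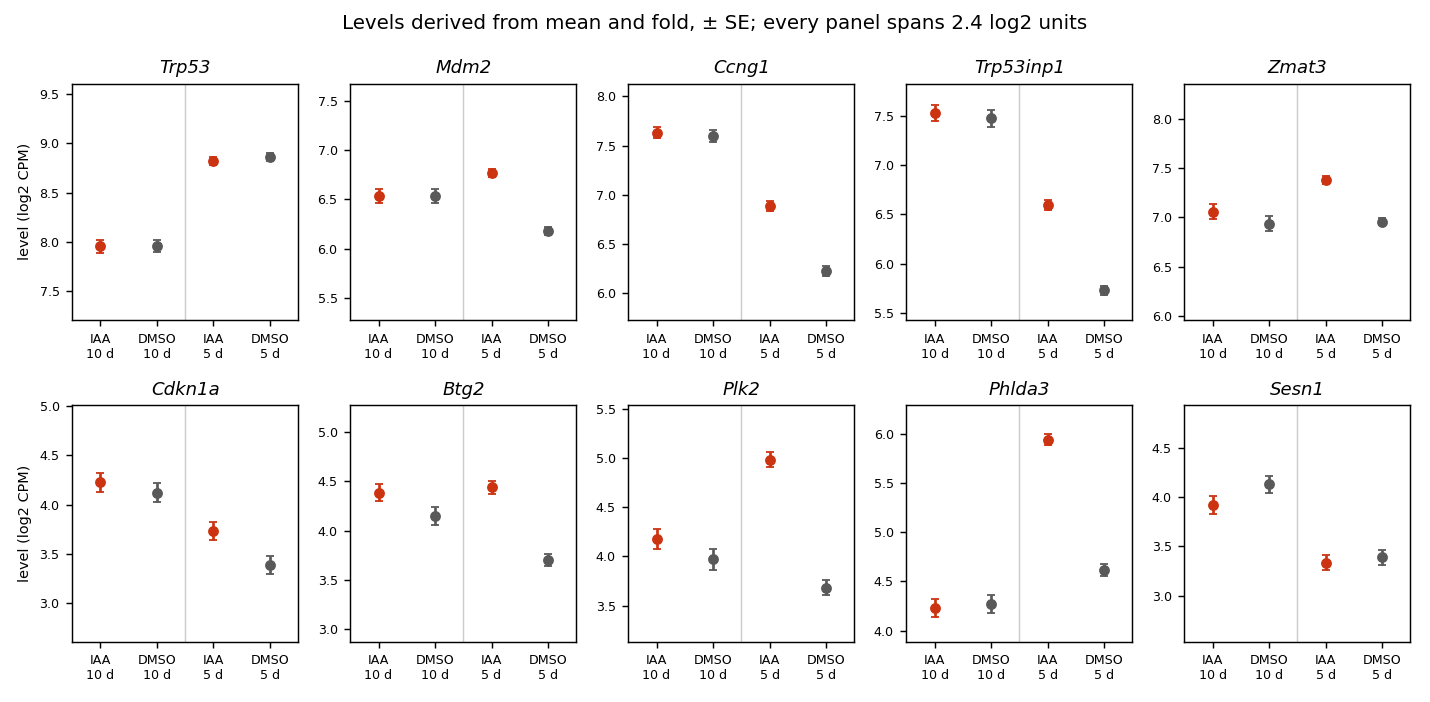
Level of each of the 10 genes in log2 CPM (vertical axis, the same span in every panel) in the 4 groups, IAA in red and DMSO in grey, with the 10-day groups left of the line and the 5-day groups right of it. Points are group means derived from the authors' mean and fold, bars the SE of a group mean, and Phlda3 reaches 5.94 in 5-day IAA cells while the other 3 groups lie between 4.23 and 4.61.

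Around these genes the p53 pathway was described by 6 lists, each given as counts and a median. Over all genes the median log2 fold at 5 days was 0.01, with 13.5% called as higher and 12.1% as lower. Apoptosis targets resembled the arrest and feedback genes in count: 7 of 10 measured rose and none fell, with a median of 0.42 against 0.62 for the arrest and feedback genes. Perp, a membrane protein of desmosomes and cell death, rose by 1.01 ± 0.13 in the authors' deposited table. Pmaip1 and Bbc3, which encode the BH3-only proteins NOXA and PUMA, had rises of 0.94 ± 0.14 and 0.92 ± 0.08, as the authors' deposited table gives them. The 3 not called were Bax and Ei24, with folds just below 0, and Fas, which lay below 1 CPM in both groups. With a size of at least 0.5 required, 3 of the 7 remained.

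Other targets were mixed, with 5 of 25 higher and 3 lower, not far from the shares of all genes (13.5% and 12.1%). Their median was 0.04, against 0.01 over all genes. Tap1, a peptide transporter of antigen presentation, led with 1.87 ± 0.16, and Dcxr, a xylulose reductase, and the phosphatase gene Ptp4a3 had 0.65 ± 0.16 and 0.63 ± 0.10 in the authors' deposited table. The genes that fell were the stress cytokine gene Gdf15, the phosphatase gene Tigar and the glutaminase gene Gls2. Of 21 measured regulators of p53, 6 fell and 1 rose, with a median of -0.04. Chek1, a checkpoint kinase gene, and Trim28, a corepressor gene, fell by 0.37 ± 0.07 and 0.37 ± 0.05, and the authors' deposited table gave Chek2 a fall of -0.27 ± 0.06. Also lower were Rpl5, Rpl11 and Rpl23, whose proteins bind MDM2 and whose reads may be shared with processed pseudogenes. Trp53bp1 rose by 0.36 ± 0.06 in the authors' deposited table. After removal of length, GC and expression trends 3 regulators were called as lower.

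Among G1 and mitotic cell cycle genes, those called were mostly lower. Whether p21 had a part in this was not tested. The G1 list held cyclins, kinases and E2F genes, and also Rb1, Rbl1, Rbl2, Pcna and Cdc25a. Of these 16 genes 7 fell, Pcna and Cdc25a among those lower, and 1 rose (Cdk6), with a median of -0.16. E2f2, an activator of S-phase genes, fell by 0.72 ± 0.11, the cyclin gene Ccnd3 by 0.57 ± 0.06 and E2f1 by 0.38 ± 0.09 in the authors' deposited table. After removal of length, GC and expression trends the list had 3 genes called as lower and 0 as higher. The mitotic list held genes known to be repressed by the DREAM complex, which p21 keeps active, and the genes of 3 subunits of that complex, Lin9, Lin37 and Lin54. Of its 16 genes 4 fell and 1 rose (Foxm1), with a median of -0.12, and none of the 3 subunit genes was called. Ccnb2, Mybl2 and Birc5 fell by 0.35 ± 0.06, 0.35 ± 0.05 and 0.23 ± 0.06 in the authors' deposited table, and with a size of at least 0.5 required none of the list was called. At 10 days no list had more than 2 genes at an unadjusted p under 0.05, which 4.3% of all genes met.

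**Figure D4:**
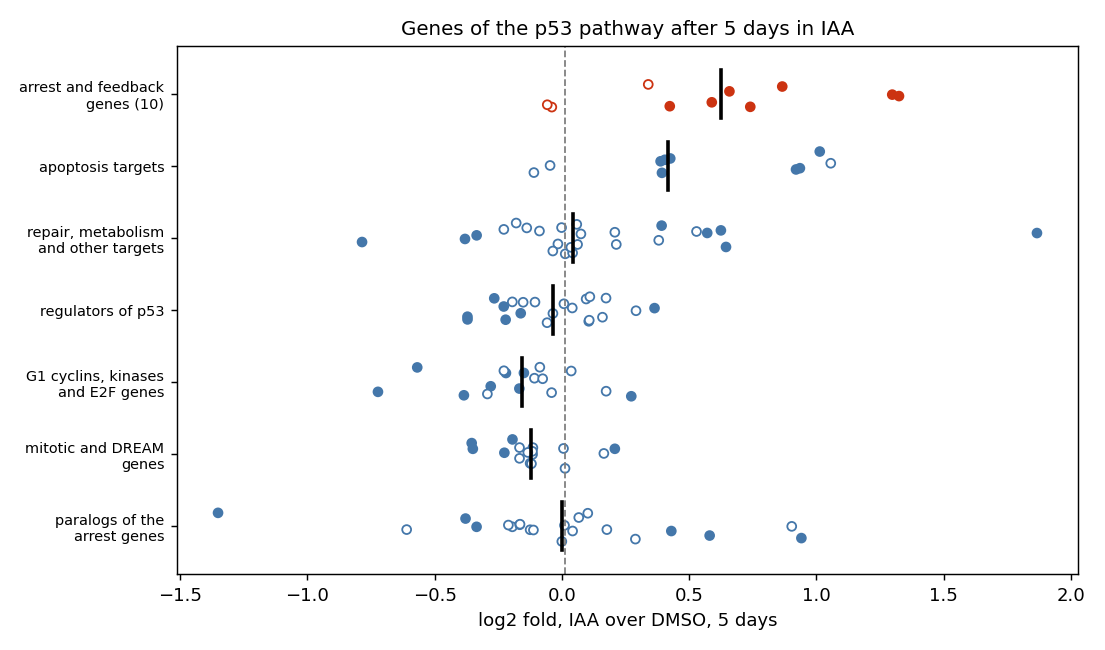
Log2 fold of IAA over DMSO at 5 days (horizontal axis) for the 10 arrest and feedback genes (red) and 6 lists of related genes (blue), 1 point a gene, with a black bar at each list's median. Filled points have a BH adjusted p under 0.05, the dashed line marks the median of all genes at 0.01, and the medians of the first 2 rows lie at 0.62 and 0.42. The row of G1 cyclins, kinases and E2F genes also holds Rb1, Rbl1, Rbl2, Pcna and Cdc25a. Points are spread up and down within a row only for sight.

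Paralogs of the arrest and feedback genes, which share a protein family, had 3 rises and 3 falls among 21 and a median of -0.00. These counts lie near the shares of all genes, 13.5% higher and 12.1% lower. The list shares Mdm4, Plk1 and Sesn2 with the lists above, so it is no set of genes outside the p53 pathway. In the Phlda family Phlda3 and Phlda1 rose, the second by 0.58 ± 0.15, while Phlda2, an imprinted gene, fell by 0.38 ± 0.06 in the authors' deposited table. Trp53inp2, a paralog with a role in autophagy, fell by 0.34 ± 0.10 in the authors' deposited table, where Trp53inp1 rose. Zmat4 fell by 1.35 ± 0.17, and Zmat2 and Zmat5 were not called, with -0.17 ± 0.07 and -0.16 ± 0.11 in the authors' deposited table. Mdm4, which binds p53 beside MDM2, was not called, at 6.74 log2 CPM in IAA and 6.93 log2 CPM in DMSO (-0.19 ± 0.07, limma BH adjusted p = 0.0597 in the authors' deposited table). Ccng2 had -0.61 ± 0.23 and did not pass (limma BH adjusted p = 0.0712 in the authors' deposited table).

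Btg1 and Btg3 had -0.00 ± 0.10 and 0.01 ± 0.07 in the authors' deposited table, with upper limits of 0.22 and 0.16, below the lower limit of 0.54 for Btg2. Of the polo-like kinases Plk1, Plk3, Plk4 and Plk5 none was called, with folds of -0.12 to 0.18 in the authors' deposited table. Of the other CDK inhibitors of the p21 family Cdkn1b had -0.21 ± 0.11 and Cdkn1c 0.07 ± 0.08, neither called in the authors' deposited table. Among sestrins it was Sesn3 that rose, by 0.43 ± 0.07, while Sesn2 had 0.04 ± 0.05 in the authors' deposited table, at 7.89 log2 CPM in IAA and 7.85 in DMSO. Trp73, which encodes the p53 relative p73, rose by 0.94 ± 0.16 at a low level of 2.67 log2 CPM in IAA and 1.73 log2 CPM in DMSO, and Trp63 lay below 1 CPM in both, from the authors' deposited table. Folds of paralogs come from the same libraries, and the differences between them were not tested.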

How the data were processed

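Poly(A) RNA was made into TruSeq libraries after Trizol extraction, per the labels' protocols. The authors deposited 1 table per time, of their own comparison, with 1 transcript a gene and no columns of single libraries; 1 row of each had been emptied. Per the file headers the columns are limma's log2 fold change and mean log2 expression (read as log2 CPM), the t and log-odds scores, and p-values with their BH adjustment. The authors also deposited GC content as a fraction and folding energies as a score (not used here). For the aligner, the counting, the build and limma's version the entry is: not given in the sources used here.

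From these values the SE (fold divided by t), 95% intervals (from t and p, 15.2 degrees of freedom for the 10-day table and 13.4 for the 5-day table), group levels (mean plus or minus 0.5 of the fold) and the z test were computed with Python 3.11.15, scipy 1.17.1 and pandas 2.3.3. The SE of a group mean takes libraries as equally weighted. The z test uses the normal law for SEs of few degrees of freedom, so its p-values are too small, most of all the smallest ones. The counts and shares that pass it are therefore likely too high, and a test with the t law was not run. BH recomputed over the rows differed from the authors' by at most 4.86e-05. Steps across genes were tested on simulated data. Coordinates are from GENCODE M21 on GRCm38, 1-based, and promoters from RefSeq on GRCm38.p6, matched by symbol. The authors may have used another build.

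The 10 genes, the 6 lists and the tests were chosen with earlier results of these data known. The text names all 10 genes, up to 3 called genes a list with the largest fold in the list's prevailing direction, and paralogs with mean log2 CPM at or above 1; other genes were named after their values were seen.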

Additional observations from a re-analysis of the deposited data

Results flagged for a closer look

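In 6 of the 10 genes the IAA effect differed between the times by the z test of the difference, at a BH adjusted p under 0.05 (10.4% of all genes did). As 10-day minus 5-day log2 folds the differences were -1.36 in Phlda3, -1.09 in Plk2, -0.81 in Trp53inp1, -0.62 in Ccng1, -0.59 in Mdm2 and -0.50 in Btg2. The controls of the 2 times differed in level for several of these genes, by 1.75 log2 CPM in Trp53inp1 and 1.37 in Ccng1 (10-day minus 5-day DMSO; 0.93 and 0.75 were the sign of the folds turned), and the part of this in the differences was not tested.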

How the results depend on the processing

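The count of called genes among the 10 at 5 days was 7 with the median fold set to 0, with genes of mean log2 CPM under 1 left out and at an adjusted p under 0.01. It was 8 with length and GC trends removed, with or without the expression trend, where Cdkn1a was added, and 6 with a size of at least 0.5, where Zmat3 was left out. At 10 days it was 0 under each alternative run. The count that differed between the times was 6 or 7. The 10 genes' median fold at 5 days ran from 0.61 to 0.67. Calls over all genes at 5 days fell to 2789 at an adjusted p under 0.01 and 2232 with a size of at least 0.5, where 69.4% of them were higher, against 4789 calls with 52.7% higher as deposited. A spacer of 0 to 3 bases in the p53 element, added after the data were seen, left the same number of 2 windows with at most 1 mismatch but raised the share of all windows to 0.219%. The best match of Mdm2 had 4 mismatches with the spacer and 9 without, and that of the downstream window of Sesn1 had 2 and 3. The other reading of the sign, also added then, moved the control difference of Trp53inp1 to 0.93 and that of Ccng1 to 0.75.

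No paired analysis was possible because the tables hold no values of single libraries, and for the same reason the fits without each replicate and with a replicate block were not run. Whether 1 library decides a value was not tested. Over genes at 3 log2 CPM or more the median SE of a fold was 0.115 at 10 days and 0.077 at 5 days. The depths of the 2 tables were close, and the cause of the larger SE was not tested.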
